A study of Arabidopsis thaliana with 8 samples.

Results

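The 10 regulators and markers of leaf senescence described here were taken by their gene identifiers from the 34133 genes with a value in the series, and all 10 were found in each of the 4 groups. They are 5 transcription factors of the NAC family (*NAP*, *ORE1*, *ATAF1*, *JUB1* and *VNI2*), 2 of the WRKY family (*WRKY53* and *WRKY6*), and the senescence-associated genes *SAG12*, *SAG13* and *SAG29*. Leaf senescence is the ordered last phase of a leaf, in which chloroplasts are dismantled and nitrogen and sugars are exported to growing organs. NAC and WRKY factors form the layer that reads age, abscisic acid, ethylene, salicylic acid and reactive oxygen and switches this programme on, while some NAC factors hold it back. Markers such as *SAG12* stand at the end of that chain and are used to tell age-dependent senescence from stress.

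Entire rosettes of Arabidopsis from the wild type (WT, accession Col-0) and from *ros1*, a hypomorphic insertion mutant of the DNA demethylase gene *ROS1*, were compared at an age of 3 weeks, each as a control labelled mock and 48 h after 10.6 g ha−1 imazethapyr (IM) with 0.5% v/v of the adjuvant Dash. Imazethapyr inhibits acetolactate synthase, an enzyme of branched-chain amino acid synthesis. Both *ros1* groups descend from that single mutant allele, and what the mock treatment held is not stated, so herbicide and adjuvant cannot be told apart. Each group (WT control, WT IM, *ros1* control, *ros1* IM) had 2 libraries of 2 rosettes each, for 8 libraries in total.

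All levels below are in FPKM (fragments scaled by transcript length and by the mapped fragments of a library), so genes can be compared with each other. Each is a single deposited value for a group, pooled over its 2 libraries. No value per library or depth is in the files used here, so no spread between replicates can be set against a difference, and no test was made. A gene is described as higher or lower where the pooled FPKM differed at least 2-fold and reached 1 in one of the groups compared. Values for *ros1* IM exist for 17284 genes, since the tables with that group list only genes called different upstream, and shares over all genes there describe that selection. The level of *ROS1* was 25 in WT control, 16.7 in WT IM, 19 in *ros1* control and 4.08 in *ros1* IM, so untreated *ros1* was under 2-fold below untreated wild type and treated *ros1* was 4.09-fold below treated wild type. The 4 rosette leaf markers (*RBCS1A*, *CAB3*, *CA1* and *RCA*) summed to an FPKM of 37937 in WT control, 7714 in WT IM, 37715 in *ros1* control and 1317 in *ros1* IM. Of 5 flower and 3 root marker genes, none passed 0.83 in the 3 groups other than *ros1* IM, where *SEP3* stood at 1.65 and the others have no value. In whole rosettes, fewer cells of a type and less RNA per cell cannot be told apart. The median log2 ratio with herbicide, over all genes that reached 1 FPKM in both groups, was 0.00 in the wild type and 0.16 in *ros1*, and that of 7 reference genes was −0.12 and, over the 6 with values, 0.15. Of these reference genes, *ACT2* was 2.72-fold lower in the wild type and 2.52-fold lower in *ros1*, and *UBQ10* was 2.35-fold and 3.61-fold higher. *UBQ10* was also 4.37-fold lower in untreated *ros1* than in untreated wild type.

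The senescence genes were mostly low in untreated wild-type rosettes and high after imazethapyr in both genotypes. In WT control, 5 of the 10 were below an FPKM of 1 and the median was 1.27. The median was 17.2 in WT IM, 6.8 in *ros1* control and 74.2 in *ros1* IM, where 9 of the 10 reached an FPKM of 10. The order of the genes changed with treatment. *VNI2* had the highest level of the 10 in both control groups, and *SAG13* in both treated groups. *SAG12* had the lowest level in all 4. For 9 of the 10 genes the highest value of the 4 groups was that of *ros1* IM, against 39.3% of the 16841 genes with values in all groups, and *SAG12* alone was highest in WT IM.

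**Figure D1:**
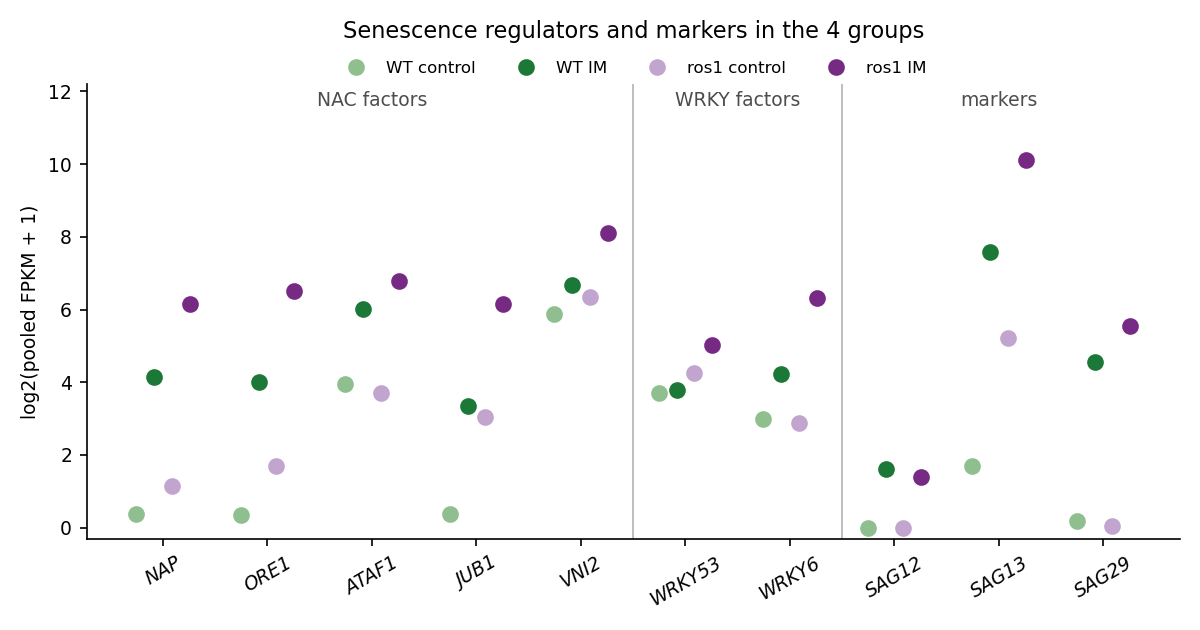
Pooled level of the 10 genes as log2(FPKM + 1) (vertical axis), 1 point for each of the 4 groups, with genes arranged by family along the horizontal axis. The point of *ros1* IM (dark purple) lies above the others for every gene but *SAG12*, and *SAG13* reaches the highest level, an FPKM of 1098.

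*NAP* (AT1G69490) encodes a NAC factor that activates the abscisic acid synthesis gene *AAO3* and the phosphatase gene *SAG113* in ageing leaves. It lies on chromosome 1 from 26122080 to 26123514 on the forward strand of TAIR10.1, with 3 exons. Its level was 0.292 in WT control and 16.8 in WT IM, 57.3-fold higher. In *ros1* it was 1.21 without herbicide and 69.6 with it, 57.5-fold higher. The mutant thus stood above the wild type by nearly the same factor in both conditions, 4.14-fold in the controls and 4.15-fold in treated plants. Both control levels are small, and on the log2(FPKM + 1) scale the response of *ros1* was larger by 1.22 and the log2 difference between the untreated genotypes was 0.77 in place of 2.05, under 2-fold.

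*ORE1* (AT5G39610) encodes the NAC factor at the centre of the age-dependent pathway, which activates nuclease genes such as *BFN1* and *RNS3* and whose protein binds the chloroplast regulators GLK1 and GLK2. The gene has 3 exons and lies on the reverse strand of chromosome 5, from 15858398 to 15859911. *ORE1* was at 0.272 in WT control and 15.1 in WT IM, a 55.5-fold difference that is close to that of *NAP*. In *ros1* control it was at 2.21, 8.13-fold above WT control, and in *ros1* IM at 89.9, 40.6-fold above its own control. Treated *ros1* plants held 5.95-fold more *ORE1* transcript than treated wild-type plants. The smaller ratio of the response in *ros1*, a log2 difference of −0.45, turned to 1.16 on the log2(FPKM + 1) scale.

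*ATAF1* (AT1G01720) encodes a NAC factor that acts upstream of *ORE1* and represses *GLK1*. It was already expressed before treatment, at 14.5 in untreated wild type and 12 in untreated *ros1*, with a difference under 2-fold between the genotypes. After imazethapyr it was at 63.8 in the wild type, 4.41-fold higher, and at 109 in *ros1*, 9.14-fold higher. The 2 treated groups differed by 1.71-fold. Its 3-exon gene (chromosome 1, 267993 to 269819, forward strand) overlaps AT1G01725 on the other strand by 28 bp. That neighbour was at 11.8 and 45.4 in untreated and treated wild type and at 20.3 and 74 in untreated and treated *ros1*, and since the library kit does not mark strand, reads of the overlap cannot be told apart.

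*JUB1* (AT2G43000) encodes a NAC factor induced by hydrogen peroxide that prolongs leaf life and activates *DREB2A*. Without herbicide it was at 0.302 in the wild type and 7.27 in *ros1*, 24.1-fold higher. This is the largest ratio of the 10 genes between the untreated genotypes only without a pseudocount, since with 1 FPKM added the log2 difference was 2.67, below the 3.52 of *SAG13*. Imazethapyr brought the wild type to 9.25, 30.6-fold above its control and near the level of untreated *ros1*. In *ros1* IM it was at 70.1, 9.64-fold above *ros1* control and 7.58-fold above WT IM. The response as a ratio was thus 3.18-fold smaller in *ros1* than in the wild type, but this order rests on the low level of WT control: on the log2(FPKM + 1) scale the response of *ros1* was larger by 0.13. The gene (chromosome 2, 17880457 to 17882636, reverse strand) overlaps AT2G42990 by 107 bp, a gene at or below 0.263 in the 3 groups with a value.

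*VNI2* (AT5G13180) encodes a NAC factor that delays senescence under salt and abscisic acid and activates cold-regulated genes such as *COR15A*. Its level of 57.4 in WT control placed it at rank 2853 of all 34133 genes, the highest rank of the 10. It was at 102 in WT IM, 1.77-fold higher and under the 2-fold limit, and at 80.4 in *ros1* control. In *ros1* IM it was at 272, 3.39-fold above its control and 2.68-fold above WT IM. *VNI2* and *SAG29* are nearest protein-coding neighbours on chromosome 5. Their start sites face each other across 12901 bp, with *SAG29* from 4181042 to 4183354 on the reverse strand and *VNI2* from 4196256 to 4197940 on the forward strand.

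The WRKY factors differed from each other. *WRKY53* (AT4G23810), an early regulator that binds promoters of other WRKY and *SAG* genes, was at 12 in WT control and 12.8 in WT IM, a ratio of 1.06 and the smallest of the 9 that could be formed. It was at 18 in *ros1* control and 31.8 in *ros1* IM, 1.77-fold higher, and only the comparison of treated *ros1* with treated wild type passed 2-fold, at 2.49. *WRKY6* (AT1G62300), a factor of senescence and defence that activates the receptor kinase gene *FRK1*, differed by 1.11-fold between the control groups, at 7.02 in the wild type and 6.33 in *ros1*. With imazethapyr *WRKY6* reached 17.7 in the wild type, 2.52-fold higher, and 78.3 in *ros1*, 12.4-fold higher. This difference between responses was 4.91-fold, and treated *ros1* stood 4.43-fold above treated wild type. *WRKY53* (chromosome 4, 12392370 to 12393982, reverse strand, 2 exons) overlaps the gene of the DNA-binding protein 3xHMG-box2, AT4G23800, by 341 bp on the other strand. That gene was at 78.6 in WT control, 8.59 in WT IM, 87.5 in *ros1* control and 0.883 in *ros1* IM, so it was lower in both treated groups, and its part in the *WRKY53* values was not tested. *WRKY6* lies on chromosome 1 from 23016569 to 23019494 on the reverse strand and has 6 exons.

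*SAG12* (AT5G45890), a cysteine protease gene expressed almost only in leaves that senesce with age, stayed low in all 4 groups. It was listed at 0 in both control groups, at 2.06 in WT IM and at 1.62 in *ros1* IM, so no fold can be given for the treatment. Treated *ros1* and treated wild type differed by 1.27-fold, with the wild type higher, and each of the other 9 genes had its higher value in *ros1* IM. The gene has 3 exons on chromosome 5, from 18613239 to 18614963 on the forward strand.

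*SAG13* (AT2G29350) encodes a short-chain alcohol dehydrogenase that responds to oxidative stress and cell death as well as to age. It had rank 5 of the 10 in untreated wild type and at the top in both treated groups. The level was 2.25 in WT control, 190.4 in WT IM, 36.3 in *ros1* control and 1098 in *ros1* IM. With herbicide it was 84.8-fold higher in the wild type. In *ros1* the difference was 30.2-fold, and the untreated plants already held 16.2-fold more than untreated wild type. Treated *ros1* was 5.77-fold above treated wild type. The response in *ros1* was 2.81-fold smaller as a ratio, and this order held on the log2(FPKM + 1) scale with a difference of −1.0.

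The gene (chromosome 2, 12600914 to 12602556, forward strand) is the seventh in a run of 9 genes from AT2G29290 to AT2G29370, which RefSeq describes mostly as NAD(P)-binding Rossmann-fold proteins and which may share reads where copies are alike. The run was chosen after its values were seen. Of the other 8 genes, only AT2G29370 was higher like *SAG13*. Of 7 that reached an FPKM of 1 in the wild type, 1 was higher, 3 were lower and 3 were under 2-fold with imazethapyr, and in *ros1* 1 was higher and 5 were lower. The nearest copies, AT2G29340 and AT2G29360, were at 56.8 and 42.5 in WT control and at 51.5 and 27 in WT IM, both under 2-fold. In *ros1* they were at 96.4 and 49.7 without herbicide and at 41.9 and 11 with it, both lower. AT2G29370 had levels of 0.073 and 2.37 in untreated and treated wild type, and 2.82 and 5.69 in *ros1*.

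**Figure D2:**
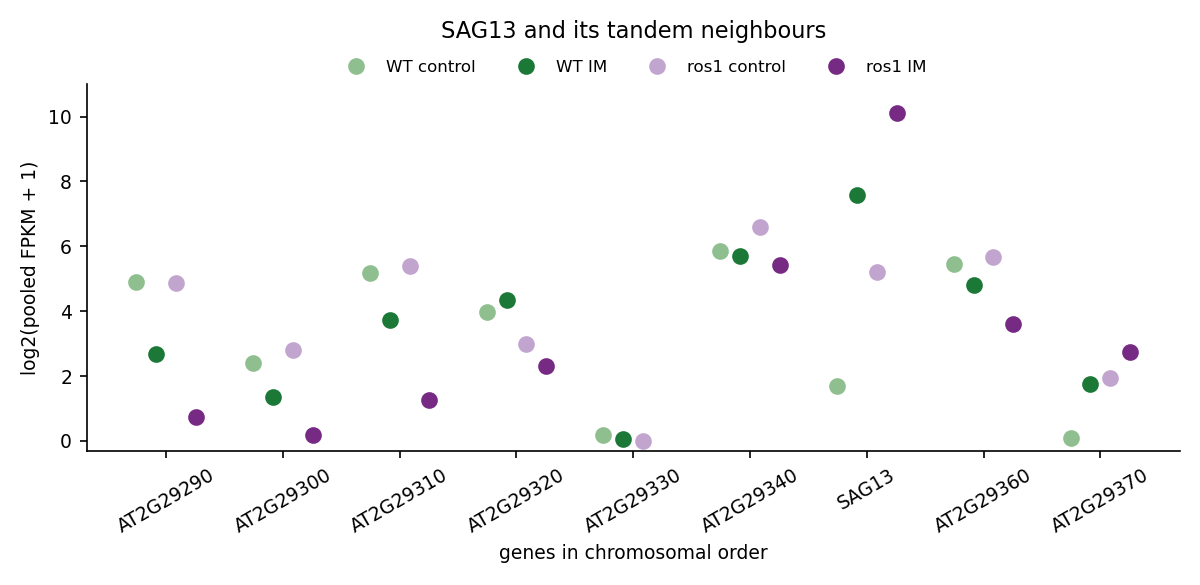
Pooled level as log2(FPKM + 1) (vertical axis) of the 9 genes of the run in chromosomal order, 1 point for each of the 4 groups; AT2G29330 has no value in *ros1* IM. The treated groups lie above their controls for *SAG13* and AT2G29370, while AT2G29290, AT2G29300 and AT2G29310 lie lower in both.

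*SAG29* (AT5G13170), also named *SWEET15*, encodes a sucrose transporter of the plasma membrane that is used as a marker of senescence and salt stress. It went from 0.132 to 22.3 in the wild type, 169-fold, and from 0.0355 to 45.9 in *ros1*, 1293-fold. Both ratios rest on control levels far below 1 FPKM, and on the log2(FPKM + 1) scale the responses were 4.36 and 5.5. In treated plants the mutant was 2.06-fold higher. Of its family relatives, *SWEET13* (AT5G50800) was also higher with herbicide in the wild type, at 1.38 in WT control and 21.8 in WT IM, 15.8-fold. In *ros1* it was at 1.84 and 3.26, under 2-fold. The phloem-loading transporters *SWEET11* and *SWEET12* were lower in WT IM, from 151 to 75.3 and from 99.2 to 46.9. The 3 further relatives, *SWEET9*, *SWEET10* and *SWEET14*, were under 1 wherever they had a value.

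With imazethapyr, 8 of the 10 genes were at least 2-fold higher in the wild type and none was lower, where 14.8% of all 18829 genes compared were higher and 18.7% lower. Genes that reached an FPKM of 1 only through the treated group could only be counted as higher. These were *NAP*, *ORE1*, *JUB1*, *SAG12* and *SAG29*, and of the other 5 genes *ATAF1*, *WRKY6* and *SAG13* were higher (3 of 5 genes, against 11.4% of all genes that reached the minimum in both groups). In *ros1*, 9 of the 10 were higher and none lower, against 20.7% and 26.8% of 16403 genes. The gene under 2-fold was *WRKY53*, and *SAG12* and *SAG29* reached an FPKM of 1 only when treated. With the minimum in both *ros1* groups, 7 genes were higher, against 18.2% of all genes. Both genotypes shared 8 of the 10 genes as higher, the same pattern as in 10.8% of 15713 genes with values in both responses. These 8 include the 5 that passed the minimum in the wild type only when treated. Without them, *ATAF1*, *WRKY6* and *SAG13* remain, and the share over all genes under that condition was not computed.

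Without herbicide, *NAP*, *ORE1*, *JUB1* and *SAG13* were at least 2-fold higher in *ros1* than in the wild type and none was lower, among the 8 genes that reached an FPKM of 1. Over all 18799 genes compared, 6.55% were higher and 10.5% lower. *NAP*, *ORE1* and *JUB1* reached that minimum only in *ros1* control and so could only be counted as higher, which leaves *SAG13* as the 1 gene of 5 when both groups must reach it, against 3.96% of all genes under the same condition. *ATAF1*, *VNI2*, *WRKY53* and *WRKY6* differed by less than 2-fold, with ratios of *ros1* to wild type of 0.828, 1.4, 1.5 and 0.902. Between the treated groups, where all 10 genes reached an FPKM of 1 in both, 8 were higher in *ros1* and none lower, against 13.2% and 22.9% of 16329 genes. The exceptions were *ATAF1* and *SAG12*. *SAG29* lies close to the limit, with a log2 ratio of 1.04 that became 0.97 when centred on all genes and 0.88 when centred on the reference genes. At a 4-fold limit the count was 5, with *NAP*, *ORE1*, *JUB1*, *WRKY6* and *SAG13*, against 5.74% of all genes.

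The size of the response differed at least 2-fold between the genotypes for 5 of the 9 genes with values above 0 in all groups. It was larger in *ros1* for *ATAF1*, *WRKY6* and *SAG29*, with differences of 1.05, 2.30 and 2.94 between the log2 ratios, and smaller for *JUB1* and *SAG13*, with −1.67 and −1.49. The difference of *ATAF1* fell under the limit with centring, at 0.90 on all genes and 0.78 on the reference genes. Among all 16180 genes treated in the same way, 9.46% had a larger and 18.6% a smaller response in *ros1*. With 1 FPKM added, 5 genes had a larger response in *ros1*, namely *NAP*, *ORE1*, *ATAF1*, *WRKY6* and *SAG29*, and 1 a smaller one. The shares over all genes with 1 FPKM added were not computed, so these counts have no background beside them.

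**Figure D3:**
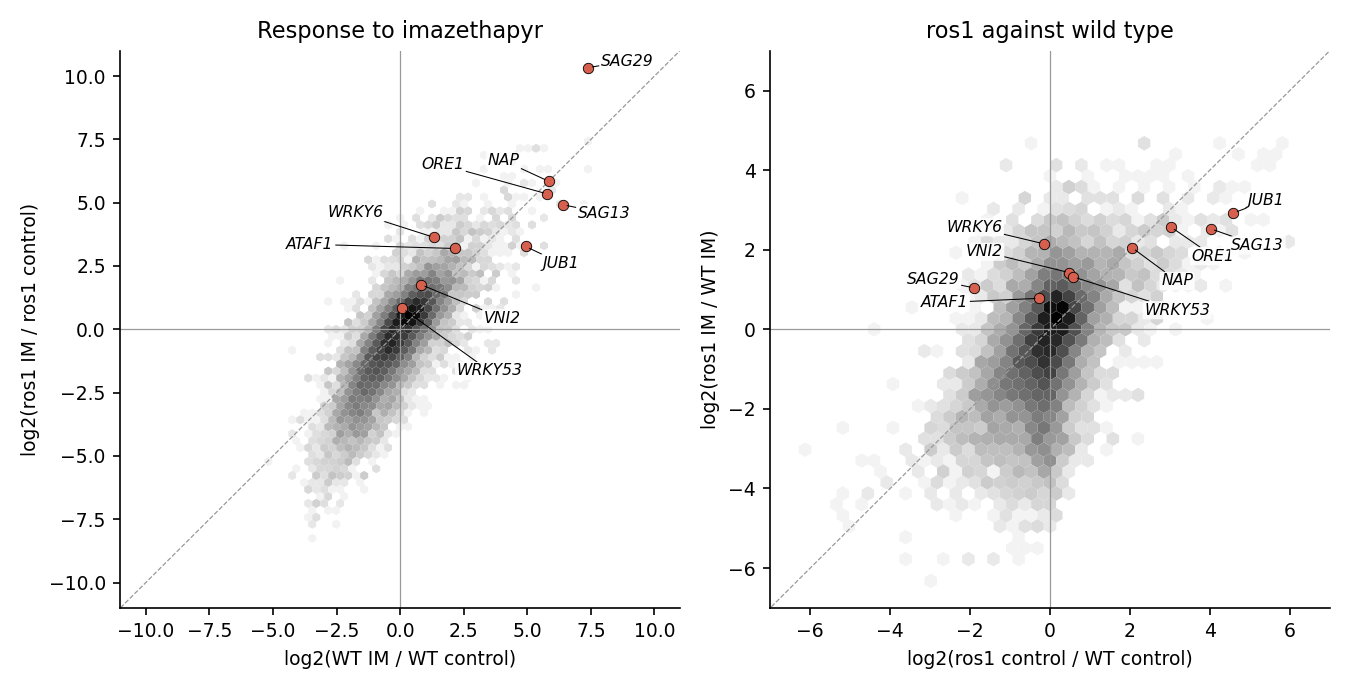
Left, log2 response to imazethapyr in the wild type (horizontal) and in *ros1* (vertical); right, log2 ratio of *ros1* to wild type without (horizontal) and with imazethapyr (vertical). Red points are the 9 genes with values above 0 in all groups, grey cells count all such genes (darker for more, on a log scale), and the dashed line marks equal ratios; *NAP* lies on that line in both panels and *WRKY6* far above it.

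Promoters were examined for sequence letters that these factor families are known to bind, over the 250 bases before each annotated start site in TAIR10.1. The W-box of WRKY factors (TTGACC or TTGACT, on either strand) was present in 3 of the 10 genes, *JUB1*, *WRKY53* and *SAG29*, and in 28.4% of 27443 protein-coding genes. The G-box CACGTG, bound by bZIP and bHLH factors, was found in *NAP* alone and in 6.49% of all promoters. The core CACG of NAC sites, which the G-box contains, was in 5 of the 10 (*NAP*, *ATAF1*, *VNI2*, *SAG13* and *SAG29*) and in 45.6% of all. The abscisic acid element ACGTGT or ACGTGG, which can overlap the G-box, was in 4 (*NAP*, *VNI2*, *SAG13* and *SAG29*) and in 16% of all. The 4 promoters with a G-box or W-box are shown 5′ to 3′ on the strand of the gene, with those letters in capitals, because the 2 genes with a pair of W-boxes responded very differently in the wild type, *JUB1* by 30.6-fold and *WRKY53* by 1.06-fold. They lie at chr1:26121830-26122079 (forward strand, *NAP*), chr2:17882637-17882886 (reverse, *JUB1*), chr4:12393983-12394232 (reverse, *WRKY53*) and chr5:4183355-4183604 (reverse, *SAG29*).
NAP: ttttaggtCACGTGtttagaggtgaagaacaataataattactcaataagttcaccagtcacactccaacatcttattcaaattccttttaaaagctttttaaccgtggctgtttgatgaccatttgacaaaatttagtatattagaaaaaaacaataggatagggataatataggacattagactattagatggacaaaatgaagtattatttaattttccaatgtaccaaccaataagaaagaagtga
JUB1: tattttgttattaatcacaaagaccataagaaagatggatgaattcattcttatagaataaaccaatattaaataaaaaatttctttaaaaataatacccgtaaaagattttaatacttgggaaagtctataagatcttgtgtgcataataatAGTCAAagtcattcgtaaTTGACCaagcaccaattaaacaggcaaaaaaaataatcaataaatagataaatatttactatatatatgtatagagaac
WRKY53: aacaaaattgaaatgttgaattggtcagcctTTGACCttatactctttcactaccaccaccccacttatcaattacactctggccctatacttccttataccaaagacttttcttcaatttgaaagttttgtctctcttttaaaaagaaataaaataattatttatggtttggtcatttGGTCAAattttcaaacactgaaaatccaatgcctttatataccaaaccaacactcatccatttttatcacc
SAG29: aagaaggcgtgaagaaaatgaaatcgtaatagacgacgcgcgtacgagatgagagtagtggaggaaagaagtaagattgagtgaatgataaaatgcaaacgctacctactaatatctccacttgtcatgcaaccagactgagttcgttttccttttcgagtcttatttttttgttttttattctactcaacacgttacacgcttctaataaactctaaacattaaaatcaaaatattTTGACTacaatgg
In *JUB1* the W-boxes have offsets of −97 and −79 bases from the start site, in *WRKY53* of −219 and −71 and in *SAG29* of −13, and the G-box of *NAP* has an offset of −242. *ORE1*, whose response in the wild type was close to that of *NAP*, held none of the 4 kinds of letters in this window. A match describes letters, and no match says nothing of a factor.

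Other NAC factors of senescence were mostly higher with herbicide, as those above. On the log2(FPKM + 1) scale, the 10 genes had a median response of 2.52 in the wild type and 3.27 in *ros1*, and the medians over all genes compared were 0.01 and 0.10. Of 11 further NAC genes, 9 were higher and none lower with imazethapyr in the wild type, against 14.8% and 18.7% of all genes. In *ros1*, 10 were higher and none lower, against 20.7% and 26.8%. Their median responses were 2.25 and 2.78 on that scale. *ORS1* and *NAC055* in both genotypes, and *NAC016* in the wild type, reached an FPKM of 1 only when treated. Such genes could not be counted as lower. The stress NAC gene *NAC019* (AT1G52890) went from 1.59 to 53.5 in the wild type and from 2.56 to 134 in *ros1*. *RD26* (AT4G27410), a NAC factor of abscisic acid responses, went from 4.27 to 30.6 and from 3.76 to 58.4. *NAC032* (AT1G77450), a gene of the same subfamily as *ATAF1*, went from 7.25 to 54.2 and from 5.93 to 68.2. The 1 of them lower in treated *ros1* than in treated wild type was *ORS1* (AT3G29035), a sister gene of *ORE1*, at 1.93 and 4.30.

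The WRKY list was more divided, like *WRKY53* and *WRKY6*. Of 14 further WRKY genes, 7 were higher and none lower in the wild type, against 14.8% and 18.7% of all genes. In *ros1*, 8 were higher and none lower, against 20.7% and 26.8%. The medians were 0.86 and 1.38. *WRKY55*, *WRKY75*, *WRKY26* and *WRKY31* in the wild type, and *WRKY31* in *ros1*, reached an FPKM of 1 only when treated. Such genes could not be counted as lower. *WRKY45* (AT3G01970), which promotes age-triggered senescence, was at 1.10 in WT control, 18.2 in WT IM, 2.39 in *ros1* control and 177 in *ros1* IM. *WRKY25* (AT2G30250) went from 8.60 to 31.6 and from 17.2 to 50.4, and *WRKY46* (AT2G46400) from 5.40 to 14.5 and from 19.9 to 51.5. In untreated *ros1*, 6 of the 13 that reached an FPKM of 1 were higher than in the wild type and 2 were lower. Over all genes, 6.55% were higher and 10.5% lower in that comparison. Of the 6, *WRKY55*, *WRKY75* and *WRKY26* reached the minimum only in *ros1* control.

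Among 12 other senescence-associated genes, 8 of 11 that reached an FPKM of 1 were higher in the wild type with imazethapyr and none was lower. Over all genes, 14.8% were higher and 18.7% lower. In *ros1*, 10 of 12 were higher and none lower, against 20.7% and 26.8%. The medians were 1.38 and 2.11. *SRG1* and *SAUR36* reached an FPKM of 1 only when treated, in both genotypes, and so could not be counted as lower. *SAG21* (AT4G02380), a mitochondrial protein gene of the late embryogenesis abundant family, was at 75.2 and 695 in untreated and treated wild type, and at 237 and 1640.4 in *ros1*. *SAG14* (AT5G20230), a blue copper-binding protein gene, was at 20.2 and 85.6, and at 53.6 and 404. The vacuolar processing enzyme gene *GAMMA-VPE* (AT4G32940) was at 28.7 and 159, and at 79.1 and 119, so that of the treated groups the wild type had the higher level, by 1.34-fold.

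Reported targets of the regulators did not all move with them. Of 11 such genes, 6 were higher and 1 lower with imazethapyr in the wild type, against 14.8% and 18.7% of all genes. Of 9 with values in *ros1*, 4 were higher and 2 lower, against 20.7% and 26.8%. The list includes *GLK1* and *GLK2*, which these factors oppose. *GLK2* was the gene lower in the wild type, and *GLK2* and *COR15A* were those lower in *ros1*. In neither genotype did the share lower exceed that of all genes. *SINA1* and *FRK1* in the wild type, and *DREB2A* in *ros1*, reached an FPKM of 1 only when treated. The medians were 1.39 and 0.83. The *NAP* target *SAG113* (AT5G59220), a phosphatase gene that restrains stomatal closure in senescent leaves, went from 5.89 to 123 in the wild type and from 5.16 to 203 in *ros1*. Its other target here, *AAO3* (AT2G27150), was under 2-fold in both, at 7.5 and 11.2 and at 8.07 and 15.1. The *ATAF1* target *NCED3* (AT3G14440), of abscisic acid synthesis, went from 1.65 to 13.6 and from 1.57 to 21.7. The *JUB1* target *DREB2A* (AT5G05410) went from 1.88 to 6.57 and from 0.631 to 4.45. Untreated *ros1* held 24.1-fold more *JUB1* transcript than untreated wild type and 0.336 times its *DREB2A* level. Both ratios rest on a level below 1 FPKM, 0.302 for *JUB1* in WT control and 0.631 for *DREB2A* in *ros1* control. Whether these differences are linked was not tested. The nuclease genes downstream of *ORE1* differed by less than 2-fold where values exist. *BFN1* (AT1G11190) was at 3.17 in WT control and 3.12 in WT IM, and *RNS3* (AT1G26820) at 7.52 and 4.98 in the wild type and at 6.13 and 3.20 in *ros1*. *COR15A* (AT2G42540), a target of *VNI2*, was 2.83-fold higher in WT IM than in WT control, and in *ros1* its level went from 53.4 to 8.74 where *VNI2* was higher. Of the chloroplast regulators that *ORE1* and *ATAF1* oppose, *GLK2* (AT5G44190) went from 59.5 to 18.1 in the wild type and from 34.9 to 7.38 in *ros1*, and *GLK1* (AT2G20570) from 219 to 162 and from 164 to 84, both under 2-fold.

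Of 16 genes upstream of these regulators, 5 were higher with imazethapyr in the wild type and none was lower, a share of 31.2% higher against 14.8% of all genes. Of 15 with values in *ros1*, 3 were higher and 3 lower, which is 20% in each direction and no more than the 20.7% and 26.8% over all genes. The medians were 0.66 and 0.04. *CRF6* (AT3G61630), a cytokinin response factor that delays senescence, was at 3.24 and 82.4 in the wild type and at 5.44 and 93.8 in *ros1*. *ABI5* (AT2G36270), a bZIP factor of abscisic acid signalling that activates *ORE1*, was 6.98-fold higher in the wild type and 7.67-fold higher in *ros1*. *PIF4* (AT2G43010), a bHLH factor that also activates *ORE1*, was at 2.57 in WT control and 6.76 in WT IM but at 6.64 in *ros1* control and 1.06 in *ros1* IM, while *ORE1* was higher with herbicide in both. The ethylene factor gene *EIN3* (AT3G20770), another activator of *ORE1*, lay between 50 and 97.7 in all groups. *ESP* (AT1G54040), whose protein counteracts WRKY53, was at 42.2 in WT control, 33.0 in WT IM, 2631 in *ros1* control and 792 in *ros1* IM.

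**Figure D4:**
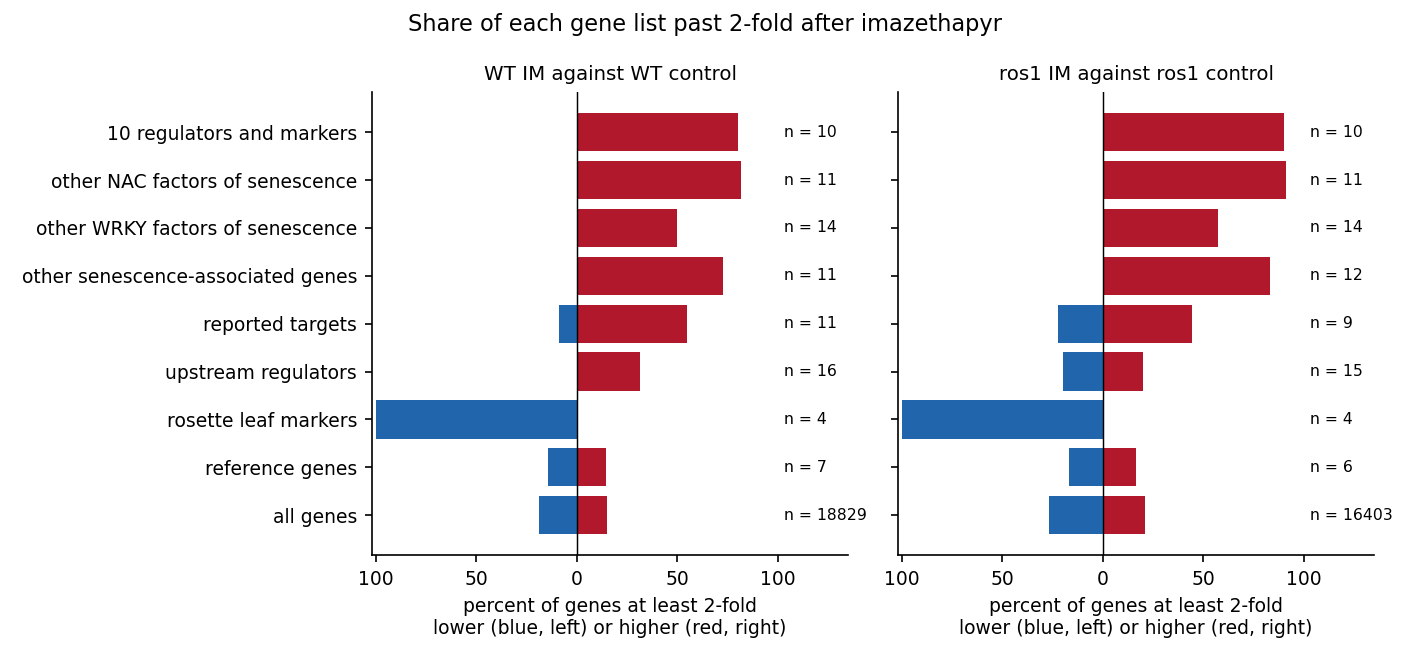
Percent of the genes of each list that were at least 2-fold higher (red, to the right) or lower (blue, to the left) with imazethapyr in the wild type and in *ros1*, with the number of genes that reached an FPKM of 1 beside each bar. The 10 regulators and markers, the further NAC genes and the other senescence-associated genes have red bars of at least 72.7%, against 14.8% and 20.7% for all genes.

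Genes with level patterns most like *NAP* and *ORE1* were sought among 16841 genes, by the Euclidean distance of log2(FPKM + 1) over the 4 pooled values after removing each gene's mean. For *ORE1* the nearest was another NAC gene, *NAC047* (AT3G04070), at 0.402 and 12.8 in untreated and treated wild type and at 2.31 and 89.3 in *ros1*, with a distance of 0.27. It was followed by the subtilase gene *SBT3.3* (AT1G32960) at 0.276 and AT4G38540 at 0.357. For *NAP* the nearest were AT1G02470, at 0.868 and 24.6, and at 2.78 and 102, with a distance of 0.205, the glyoxalase family gene *GLYI7* (AT1G80160) at 0.338 and the AP2 factor gene *Rap2.6L* (AT5G13330) at 0.373. A likeness over 4 values is a weak description, since many genes share so short a pattern.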

How the data were processed

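RNA of 8 libraries, 2 per group, was sequenced from entire rosettes. Following the submitters' processing notes and the study's methods, the authors checked reads with FastQC 0.10.1, trimmed them with the FASTX-Toolkit, aligned them to TAIR10 with Bowtie2 and TopHat2, and estimated FPKM with Cufflinks. The deposited FPKM is 1 value per group over its 2 libraries, so replicate error is unknown here, and depth per library was not used. The paper reports that a smaller share of reads aligned in *ros1* than in the wild type. Its effect on ratios between the genotypes was not tested. The library kit does not mark strand. Versions of the other tools and the annotation release are not given in the sources used here.

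Values came from 7 of 33 deposited tables. They agreed for every gene and group (0 unequal values among 118470 pairs). The other tables repeat rows of these or are hand-made candidate lists. Columns with the authors' fold changes, test statistics, p-values and q-values hold their own comparisons and were not used.

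Ratios were computed without a pseudocount in Python 3.11.15 with pandas 2.3.3 and numpy 2.4.6. A gene counted as higher or lower at a 2-fold ratio with an FPKM of at least 1 in one of both groups. The counting was tested on simulated data. The genes and lists were chosen with earlier results of these data known. From each list, at most 3 genes were named, those with the largest ratio with herbicide in the wild type among genes past 2-fold that reached the minimum in both of its groups, and beside them genes that one of the 10 acts on or that the text needs; *ORS1*, *EIN3*, *ESP*, *SWEET9*, *SWEET10*, *SWEET14* and the run around *SAG13* were added after their values were seen. Positions, exons and promoter sequences are from RefSeq TAIR10.1. Of 34133 identifiers, 27978 match a gene on its 5 chromosomes, and all of these overlap the locus given in the files. Alternatives were other fold limits, minimums, pseudocounts and centrings.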

Additional observations from a re-analysis of the deposited data

How the results depend on the processing

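No paired analysis was possible because the deposited tables give 1 pooled value per group, and for the same reason no replicate could be left out. The counts of genes at least 2-fold higher or lower were recomputed with limits of 1.5-fold and 4-fold, no minimum FPKM, the minimum in both groups, pseudocounts of 1 and 0.1, and centring on all genes or on the reference genes. Of the 40 recomputed counts whose original was above 0, 35 stayed within 1.5 times it. Counts of 0 genes lower could hardly change under most settings and say little. With the minimum in both groups, 3 genes rather than 8 were higher in WT IM than in WT control, and 1 rather than 4 in *ros1* control than in WT control, since genes under the minimum are left out. With no minimum, 1 gene (*SAG29*, at 0.132 and 0.0355) was lower in *ros1* control. At 4-fold, 5 rather than 8 of the genes in treated *ros1* exceeded treated wild type. With a pseudocount of 1, 5 genes rather than 3 had a larger response in *ros1* and 1 rather than 2 a smaller one, and the shares over all genes were not computed for it. The pseudocount of 1 turned the difference in response of *JUB1* from −1.67 to 0.13, as its WT control level lies below 1. It turned that of *ORE1* from −0.45 to 1.16, and brought the untreated difference of *NAP* from 2.05 to 0.77. Centring on all genes or on the reference genes left no difference past 2-fold with another direction, but took *SAG29* in *ros1* IM against WT IM (7 rather than 8 genes higher) and the difference in response of *ATAF1* (2 rather than 3) below the limit.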
